A study of Mus musculus with 3 samples.

Results

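Transcripts of 6 cytokine genes were examined in single hippocampal myeloid cells of mice: Il1a, Il1b, Il1rn and Il18 of the interleukin-1 family, Tnf, and Il6. The genes were chosen by name, as those 6 of the 31053 gene rows of each count table, and all 6 were found. They were counted in 19791 cells kept from 20376 barcodes, over 3 sequencing runs. A UMI, or unique molecular identifier, tags an RNA molecule before amplification so that copies are counted once. Kept cells had 1000 UMIs or more, 500 genes or more, and no more than 10% of UMIs from mitochondrial genes. A cell with at least 1 UMI of a gene is called a carrier of it. Levels are given in CPM, the UMIs of a gene per 1000000 UMIs of the same cells.

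All animals had the genotype Cx3cr1CreERT2/+, Rosa26tdTomato/+ and NestinTK-eGFP/+, so 1 allele of Cx3cr1 carried a tamoxifen-inducible Cre recombinase, a Cre-dependent tdTomato reporter marked the recombined cells, and a Nestin-driven thymidine kinase and eGFP transgene was present throughout. Tamoxifen was given at 100 mg/kg on 4 days, and tdTomato+ cells were sorted from both hippocampi after perfusion and myelin removal. The labels name 12 animals, 6 male and 6 female, and 3 runs of a single group, without assigning animals to runs or giving an age. No untreated, wild-type or stimulated group was compared, so each comparison is between cells of the same runs. A p-value or SE measures no more than the spread between 3 runs. The edgeR fits estimated that spread partly from all genes together, and wholly so for Il18, Tnf and Il1b carriers. An SE can therefore be small where the 3 runs of a gene differ widely. Cx3cr1 is active in microglia and also in other macrophages, so the reporter alone does not separate them.

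Interleukin-1 alpha and interleukin-1 beta are ligands of the same receptor, and the receptor antagonist encoded by Il1rn binds that receptor without starting a signal. Interleukin-1 beta and interleukin-18 are made as inactive precursors that caspase-1 cleaves in inflammasomes, whereas the precursor of interleukin-1 alpha is already active. Tumour necrosis factor is shed from the cell surface by the protease encoded by Adam17, and interleukin-6 signals through receptors built from Il6ra and Il6st. In brain macrophages the transcripts of Il1b, Tnf and Il6 are known for rapid induction through NF-kappaB after injury or infection, and also after cells have been handled. A transcript count says nothing about cleavage or secretion.

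Il1a (ENSMUSG00000027399) lies on chromosome 2 at 129299610 to 129309972, minus strand, and Il1b (ENSMUSG00000027398) on the same strand at 129364570 to 129371139, in GRCm38 with GENCODE M21 gene models. Their gene bodies are 54597 bases apart. Il1rn (ENSMUSG00000026981) is also on chromosome 2, at 24336853 to 24351494 on the plus strand. Il18 (ENSMUSG00000039217) is on chromosome 9 at 50554827 to 50581840, plus strand, Tnf (ENSMUSG00000024401) on chromosome 17 at 35199381 to 35202007, minus strand, and Il6 (ENSMUSG00000025746) on chromosome 5 at 30013114 to 30019981, plus strand. All are protein-coding genes, and the spans cover the whole gene with its exons, introns and untranslated regions.

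The bases just before the transcription start are shown for 5 genes because the results separate Il18, which was not called in a chemokine-rich population, from Il1a, Il1b and Tnf, which were higher there. Il1b was also high in other populations. The last 100 bases before the start are printed from RefSeq models of GRCm38.p6, on the strand of each gene. They are chr2:129309973-129310072 (minus strand) for Il1a, chr2:129371140-129371239 (minus strand) for Il1b, chr17:35202008-35202107 (minus strand) for Tnf, chr5:30013014-30013113 (plus strand) for Il6 and chr9:50554600-50554699 (plus strand) for Il18. Capitals mark matches of 4 motifs searched on both strands, namely the TATA box core (TATAAA), the AP-1 site (TGANTCA), the core of PU.1 sites (GAGGAA) and the kappaB consensus.
Il1a: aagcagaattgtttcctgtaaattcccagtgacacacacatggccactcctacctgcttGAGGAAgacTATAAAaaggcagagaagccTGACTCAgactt
Il1b: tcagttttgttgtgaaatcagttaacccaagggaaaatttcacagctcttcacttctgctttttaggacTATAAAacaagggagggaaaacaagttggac
Tnf: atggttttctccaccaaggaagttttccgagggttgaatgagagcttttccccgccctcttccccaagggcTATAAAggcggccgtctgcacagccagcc
Il6: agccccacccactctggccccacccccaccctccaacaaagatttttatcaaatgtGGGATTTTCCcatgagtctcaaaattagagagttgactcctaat
Il18: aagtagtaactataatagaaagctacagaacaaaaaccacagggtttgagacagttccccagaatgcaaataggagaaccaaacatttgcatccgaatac

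The TATA core began 32 bases before the start in Il1a, 31 in Il1b and 29 in Tnf. Between 20 and 40 bases before the start it was found in 3 of the 6 genes and in 1.99% of 32851 promoter windows, an interval chosen after these matches had been seen. Over the full 250 bases searched, the TATA core was found in 12.4% of windows on either strand, the AP-1 site in 6.75%, the PU.1 core in 23.3% and the kappaB consensus in 3.90%. The AP-1 site was matched in Il1a (12 to 6 bases before the start), Il1rn and Il6, and the kappaB consensus only in Il6, 44 to 35 bases before the start. In the printed bases of Il18 none of the 4 motifs was matched. These are matches of letters and not measured binding.

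Run 1 was the deepest, with medians of 4425, 3438 and 3696 UMIs per kept cell and 33547705, 24534691 and 24073809 UMIs in all for runs 1, 2 and 3. Run 3 stood apart in immediate early genes (Fos, Jun, Egr1 and similar genes that respond within minutes), whose 10 listed members summed to 3601 CPM there against 557 and 742 in runs 1 and 2. Cells with UMIs of Xist and of Y-linked genes together, which mark doublets of a female and a male cell or free RNA, made up 3.39%, 1.68% and 2.85% of runs 1, 2 and 3, and 23 barcodes occurred in more than 1 run. Doublets were not removed. Among all kept cells, neutrophil markers summed to 9.18 CPM in run 1 and to 0.0815 and 0.125 in runs 2 and 3, and T/NK markers to between 11.6 and 21.8.

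Cells were divided by marker genes that do not include the 6 cytokines. Reference microglia, defined by at least 3 of 11 microglial genes and no other gate, numbered 6301, 6269 and 5182 in runs 1, 2 and 3. Cells in which Ccl3 and Ccl4, which encode chemokines, made up at least 0.2% of UMIs numbered 26, 33 and 49. Interferon-responsive cells numbered 64, 33 and 40, lipid-type cells (genes of the disease-associated state such as Spp1 and Lpl) 37, 31 and 18, and cells with 2 of Emp3, Fxyd5 and Tnfsf13b 297, 208 and 226. Border-associated macrophage-like cells (Mrc1, Pf4, Lyve1 and others) numbered 81, 35 and 54, and MHC class II-high cells, with H2-Aa, H2-Ab1 and H2-Eb1 all detected, 16, 17 and 29. Neither gate asked for or excluded microglial genes, so either can hold microglia. The immediate early-high gate held 3, 2 and 429 cells, so its level is given for run 3 only. Of the border-associated macrophage-like cells of run 1, 26 held both Xist and Y-linked UMIs.

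Il1a was widely detected, and its level was highest in Ccl3/Ccl4-high cells. Runs 1, 2 and 3 had it in 18.3%, 16.8% and 23.7% of cells, with exact binomial bounds of 17.4 and 19.3, 15.9 and 17.7, and 22.6 and 24.8%, for a mean of 19.6% ± 3.63 (SD, n = 3). Thinned to 2000 UMIs per cell, the mean share was 11.0% ± 2.65. In reference microglia the level was 47.4, 52.8 and 74.4 CPM in runs 1, 2 and 3. In Ccl3/Ccl4-high cells it was 203, 392 and 229, so the 3 runs lay above all those of reference microglia. Of these cells, 45 of 108 were carriers, against 3387 of 17752 reference microglia.

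The difference in Il1a was a log2 change of 2.34 ± 0.24 (SE, n = 3 runs, edgeR quasi-likelihood adjusted p = 1.635e-07). Interferon-responsive cells had 76.6 ± 24.4 CPM, Emp3/Fxyd5/Tnfsf13b cells 64.9 ± 16.7 and lipid-type cells 62.1 ± 31.8 (43.8, 43.7 and 98.8 in runs 1, 2 and 3; SD, n = 3), and each overlapped with reference microglia over the runs. At the low end, MHC class II-high cells had 20.4, 12.3 and 25.1 CPM, from 8 UMIs, and border-associated macrophage-like cells 20.5, 25.6 and 0, from 21 UMIs. Il1a fell in border-associated macrophage-like cells, with a log2 change of -1.50 ± 0.38 (edgeR adjusted p = 0.00479). In MHC class II-high cells the change was -1.26 ± 0.58 (edgeR adjusted p = 0.126), and it passed only without a filter on low counts (-1.43, adjusted p = 0.0356). In choroid plexus-like cells, which should lack microglial cytokines, 9.26% of 54 cells had an Il1a UMI at a median depth of 2826.5 UMIs, against 19.1% of reference microglia at 3796.

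**Figure D1:**
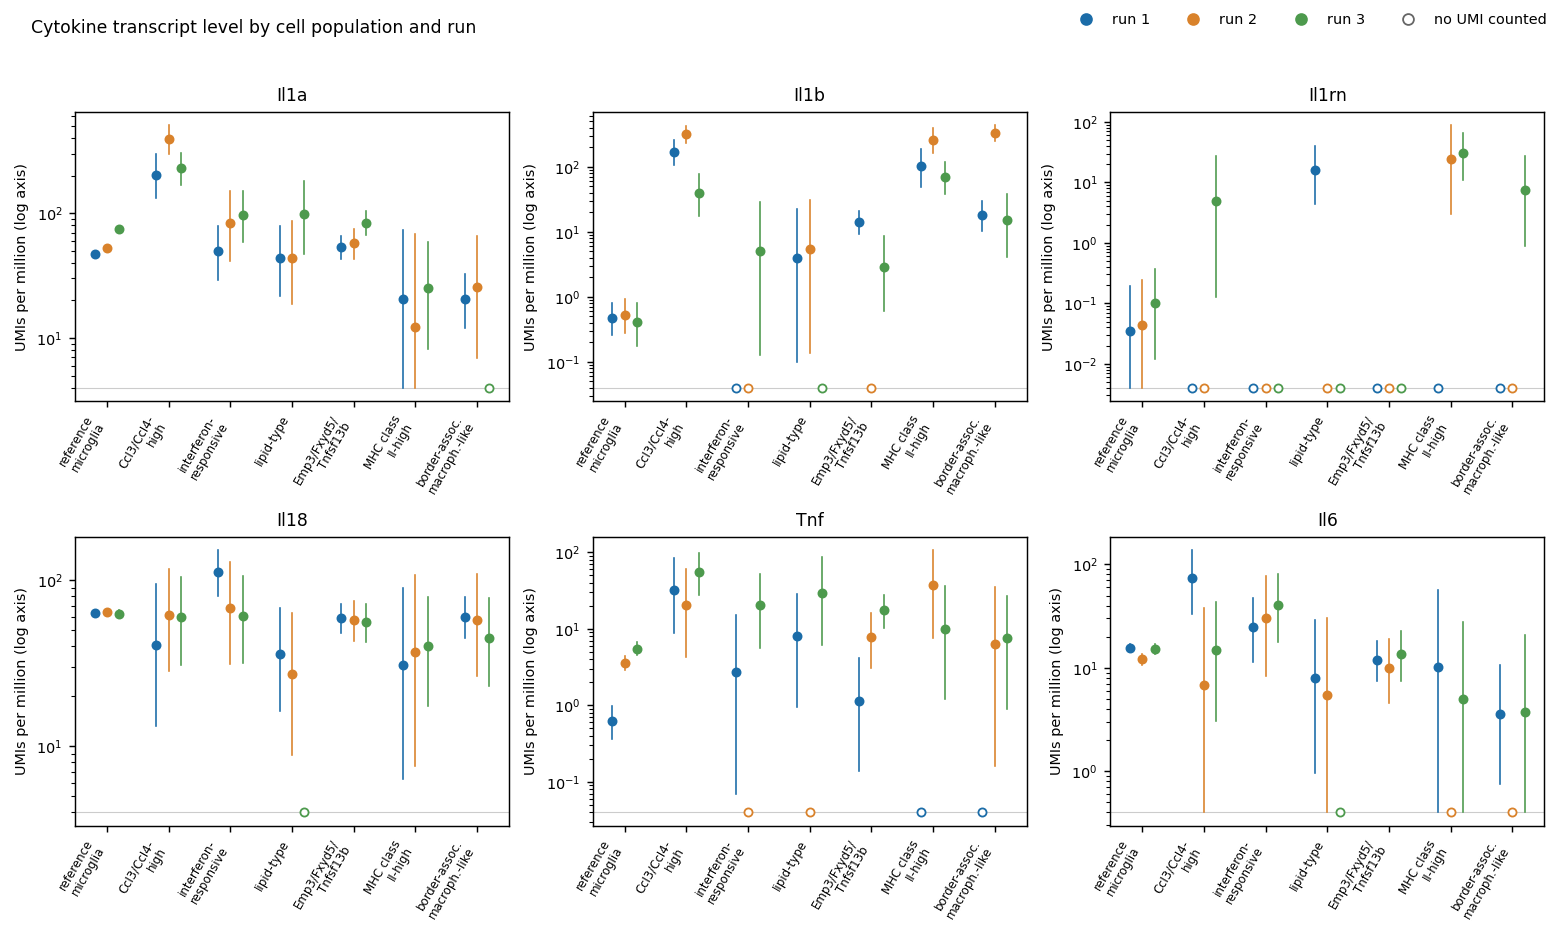
CPM (log axis) of each cytokine in 7 populations, 1 point per run with its exact Poisson interval, which covers counting error only. Open circles on the lowest line are runs with no UMI. Il1a and Il1b were highest on average in Ccl3/Ccl4-high cells, and the runs of Il18 lay close together in reference microglia.

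Il1b was rare and uneven. It was carried by 28, 33 and 25 cells in runs 1, 2 and 3, or 0.434% ± 0.0495 of cells (SD, n = 3), and gave 93, 144 and 44 UMIs, or 2.77, 5.87 and 1.83 CPM. Only 34 of the 281 UMIs were in reference microglia, where the level was 0.480, 0.533 and 0.403 CPM in runs 1, 2 and 3. Ccl3/Ccl4-high cells, 0.546% of all cells, held 75 UMIs (26.7%), border-associated macrophage-like cells 71 and MHC class II-high cells 45. Emp3/Fxyd5/Tnfsf13b cells held 28, and choroid plexus-like and T/NK-like cells none.

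In Ccl3/Ccl4-high cells the level of Il1b was 171, 316 and 39.9 CPM in runs 1, 2 and 3, carried by 10 of 108 cells. MHC class II-high cells had 102, 258 and 70.4, carried by 13 of 62 cells. Border-associated macrophage-like cells had 18.1, 333 and 14.9, carried by 16 of 170 cells. Every run of these 3 populations lay above every run of reference microglia. The populations overlapped with each other, and run 2 was highest in all 3.

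Against reference microglia Il1b rose by 8.38 ± 0.90 on the log2 scale in Ccl3/Ccl4-high cells (edgeR adjusted p = 3.832e-07), by 8.28 ± 0.90 in MHC class II-high cells (edgeR adjusted p = 2.947e-08) and by 7.43 ± 0.90 in border-associated macrophage-like cells (edgeR adjusted p = 5.687e-07). Without run 2, the last change was 5.18. When the cell with the most Il1b UMIs was left out of each population and run, the changes were 7.64, 7.28 and 6.74, each still with an adjusted p under 0.05. In Emp3/Fxyd5/Tnfsf13b cells, with 14.2, 0 and 2.90 CPM, Il1b rose by 3.94 ± 0.97 (edgeR adjusted p = 0.0253), but 17 of the 25 UMIs of run 1 came from a single cell. Without the cell with the most Il1b UMIs that change was 2.50 (adjusted p = 0.472), without run 1 it was 1.68 (adjusted p = 0.822), and DESeq2's Wald test gave an adjusted p of 0.269. In lipid-type cells there were 2 Il1b UMIs (3.98, 5.47 and 0 CPM in runs 1, 2 and 3) and in interferon-responsive cells 1.

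A few cells held most of the Il1b transcripts. Of 86 carriers, 48 had a single UMI, and 20 cells with at least 5 UMIs, 0.101% of all cells, held 189 of the 281 UMIs (67.3%). These 20 cells were 7, 10 and 3 in runs 1, 2 and 3. By population they were 7 Ccl3/Ccl4-high, 5 MHC class II-high, 4 border-associated macrophage-like, 2 Emp3/Fxyd5/Tnfsf13b and 2 immediate early-high cells. An Il1a UMI was present in all 7 Ccl3/Ccl4-high, both Emp3/Fxyd5/Tnfsf13b and both immediate early-high cells, in 2 of the 4 border-associated macrophage-like cells, and in 0 of the 5 MHC class II-high cells. The 7 Ccl3/Ccl4-high cells held 40 Il1a UMIs beside 68 Il1b UMIs. For Il1a, by contrast, 82.5% of carriers had a single UMI and 11 cells had 5 or more.

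**Figure D2:**
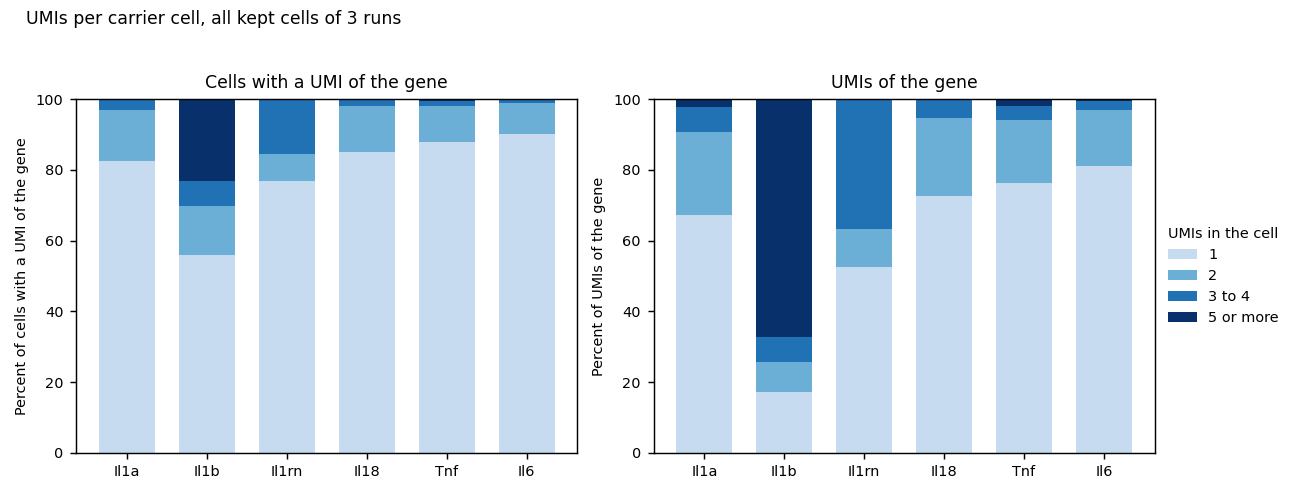
Carriers of each cytokine (left) and their UMIs (right), in percent, divided by the number of UMIs of that gene in the cell, over all kept cells of 3 runs. Cells with 5 or more UMIs held 67.3% of the Il1b UMIs and 2.26% of the Il1a UMIs.

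Il1rn gave 5, 3 and 11 UMIs in runs 1, 2 and 3, in 13 cells. MHC class II-high cells held 8 of the 19 UMIs in 6 of 62 cells, at 0, 24.6 and 30.2 CPM in runs 1, 2 and 3. Lipid-type cells held 4 UMIs, all in 1 cell of run 1, and reference microglia 4. Border-associated macrophage-like cells held 2, and Ccl3/Ccl4-high cells 1. Il1rn did not pass the filter on low counts in any comparison of populations. Without that filter it rose in MHC class II-high cells (log2 change 7.65 ± 1.29, edgeR adjusted p = 1.674e-07), where 3.93% of 18410 genes rose and run 1 had no UMI. The same unfiltered fit gave 6.46 ± 1.56 for lipid-type cells (adjusted p = 0.00171, with 2.18% of genes higher), a value that rests on the UMIs of that 1 cell. In Emp3/Fxyd5/Tnfsf13b cells there was no Il1rn UMI in 731 cells.

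Il18 was even between runs in reference microglia and lower in lipid-type cells. It was carried by 25.1%, 20.1% and 20.9% of cells in runs 1, 2 and 3, and by 11.8%, 11.4% and 11.7% after thinning to 2000 UMIs. In reference microglia the level was 63.1, 64.1 and 62.7 CPM, a mean of 63.3 ± 0.747 (SD, n = 3). Ccl3/Ccl4-high cells had 40.7, 61.9 and 59.9, and border-associated macrophage-like cells 60.2, 57.6 and 44.8. The log2 changes of Il18 in these 2 populations were -0.05 ± 0.27 (edgeR adjusted p = 0.956) and -0.02 ± 0.18 (edgeR adjusted p = 0.997). Interferon-responsive cells had 113, 68.3 and 61.2 CPM, with only run 1 well above reference microglia (log2 change 0.51 ± 0.20, edgeR adjusted p = 0.383).

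The lowest level of Il18 among microglial gates was in lipid-type cells, with 35.8, 27.3 and 0 CPM from 14 UMIs, below every run of reference microglia. Il18 fell there by 1.19 on the log2 scale (SE 0.35, edgeR adjusted p = 0.0139). Without run 2 the adjusted p was 0.126 (log2 change -1.24) and without run 3 it was 0.0932 (-0.89). MHC class II-high cells had 35.9 ± 4.85 CPM (SD, n = 3) from 14 UMIs, with a change of -0.49 ± 0.37 (edgeR adjusted p = 0.393). Choroid plexus-like cells had 9.80 ± 8.95, from 3 UMIs in 54 cells.

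Tnf differed between runs more than between most populations. It was carried by 25, 91 and 158 cells and gave 29, 96 and 191 UMIs in runs 1, 2 and 3. The level over all cells was 0.864, 3.91 and 7.93 CPM, and in reference microglia 0.617, 3.60 and 5.49. The exact Poisson intervals of the 3 runs of reference microglia (0.365 to 0.975, 2.86 to 4.47 and 4.51 to 6.63) did not overlap. Runs form a single group, so this difference was not tested. The counting software had version 3.0.2 in run 1 and 3.1.0 in runs 2 and 3, and run 3 held most of the immediate early-high cells. The part of either in the levels of Tnf was not tested.

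Ccl3/Ccl4-high cells had 32.5, 20.6 and 54.9 CPM of Tnf, from 18 UMIs in 13 of 108 cells, and each run lay above every run of reference microglia. Tnf did not pass the filter on low counts in the comparisons of populations. Fitted without it, Tnf rose in Ccl3/Ccl4-high cells (log2 change 3.50 ± 0.55, edgeR adjusted p = 6.603e-08), where 1.79% of 18346 genes rose. Emp3/Fxyd5/Tnfsf13b cells had 1.14, 7.71 and 17.4 CPM, which follow the order of the runs in reference microglia. In the same unfiltered fit their change was 1.36 ± 0.43 (adjusted p = 0.0638). The 429 immediate early-high cells of run 3 had 16.5 CPM of Tnf (exact Poisson interval 11.2 to 23.4), against 5.49 (4.51 to 6.63) in reference microglia of that run. Among 14 T/NK-like cells, 1 cell of run 3 held 6 Tnf UMIs.

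Il6 was carried by 6.36%, 4.12% and 5.61% of cells in runs 1, 2 and 3, and 90.2% of its carriers had a single UMI. Reference microglia had 15.5, 12.0 and 15.2 CPM, a mean of 14.2 ± 1.92 (SD, n = 3). Interferon-responsive cells had 24.8, 30.3 and 40.8, above every run of reference microglia, from 21 UMIs in 18 of 137 cells. That change was 1.07 ± 0.44 on the log2 scale and did not pass the test (edgeR adjusted p = 0.464). Ccl3/Ccl4-high cells had 73.2, 6.87 and 14.97 CPM, so run 1 alone was high (log2 change 1.10 ± 0.54, edgeR adjusted p = 0.2435). In border-associated macrophage-like cells there were 4 Il6 UMIs in 170 cells, at 3.61, 0 and 3.73 CPM. Il6 fell there by 2.10 on the log2 scale (SE 0.68, edgeR adjusted p = 0.0269), but the adjusted p was 0.0773 without run 2, 0.0595 without run 3, 0.0681 without the run as a block and 0.0668 with stricter cells. The 429 immediate early-high cells of run 3 had 29.3 CPM (exact Poisson interval 22.1 to 38.1), against 15.2 (13.5 to 17.0) in reference microglia of that run.

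**Figure D3:**
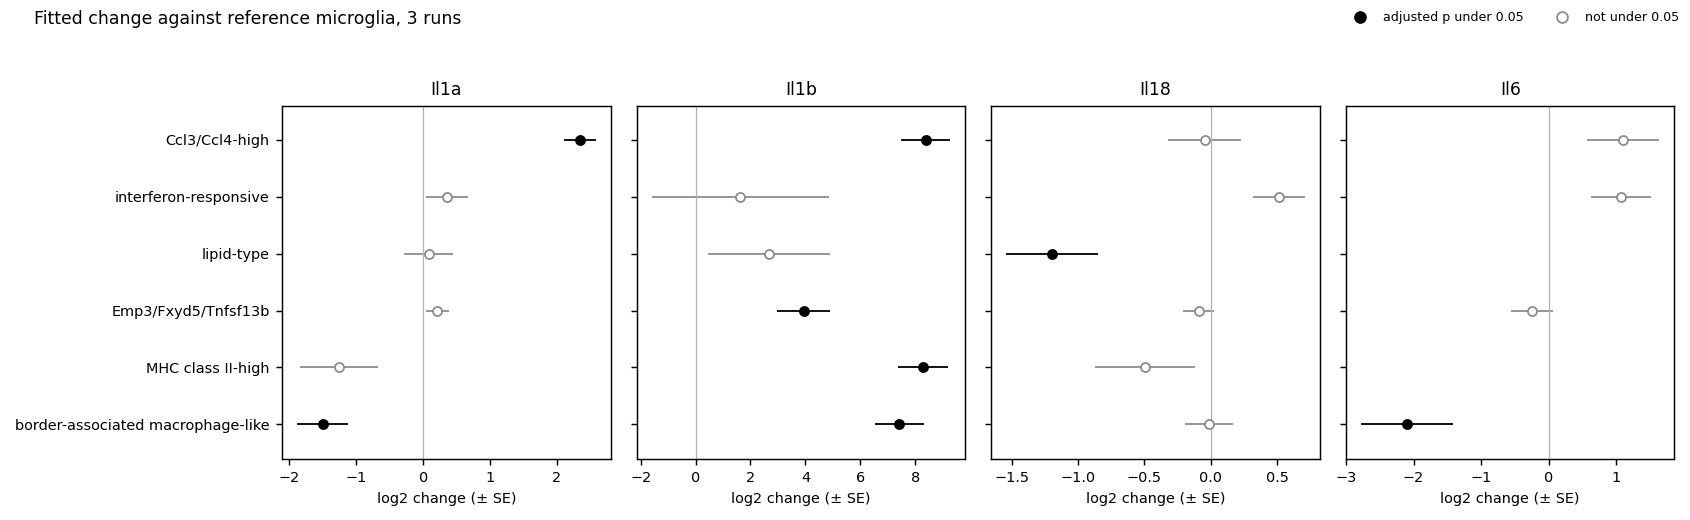
Log2 change of 4 cytokines in each population against reference microglia, with its SE, from edgeR fits over 3 runs. Filled points have an adjusted p under 0.05. Il1b lay between 7.43 and 8.38 in 3 populations, and Il18 lay at or below 0.51 in all 6. Il6 has no point where it did not pass the filter on low counts.

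The counts of called genes put these changes in proportion. In Ccl3/Ccl4-high cells 2 of the 4 cytokines tested rose (Il1a and Il1b), where 5.12% of 6177 genes rose. In Emp3/Fxyd5/Tnfsf13b cells 1 of 4 rose (Il1b), against 1.76% of genes. In border-associated macrophage-like cells 1 of 4 rose, against 13.5% of genes, and 2 of 4 fell (Il1a and Il6), against 9.44%. In interferon-responsive cells none of 4 was called, against 2.15% of genes in either direction, and 477 of the 6177 genes had an unadjusted edgeR p under 0.05. DESeq2 likewise called no cytokine there. MHC class II-high and lipid-type cells were fitted at 15 or more cells per run, a minimum lowered after the data had been seen. There, 1 of 3 cytokines rose in MHC class II-high cells (Il1b), against 13.5% of 4470 genes, and 1 of 3 fell in lipid-type cells (Il18), against 9.44%. Without the filter on low counts, 2.99% of 18410 genes fell in MHC class II-high cells, Il1a among them. Members that passed the filter did so partly because of the population in which they were high. Il1b passed it only through such populations, being at 0.403 to 0.533 CPM in reference microglia. Counts that include Il1b are therefore not separate support.

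Pairs of populations were also tested against each other. Il1a was 3.57 lower on the log2 scale in MHC class II-high than in Ccl3/Ccl4-high cells (log2 change -3.57 ± 0.49, edgeR adjusted p = 8.222e-06), where 5.15% of 4470 genes were lower. Il1b was not called by the same test (log2 change 0.01 ± 0.61, edgeR adjusted p = 0.998). The 2 populations thus had Il1b levels that overlapped, at 102, 258 and 70.4 against 171, 316 and 39.9 CPM, and Il1a levels that did not, at 20.4, 12.3 and 25.1 against 203, 392 and 229. Lipid-type cells had less Il1a (log2 change -2.23 ± 0.35, edgeR adjusted p = 3.28e-04) and less Il1b (-5.59 ± 1.26, edgeR adjusted p = 0.00889) than Ccl3/Ccl4-high cells, where 2.57% of genes were lower. Without run 2 the adjusted p-values were 0.0690 for Il1a and 0.0947 for Il1b, and without the run as a block 0.0850 for Il1b.

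Markers of other cells were counted in the same populations. Cells with enough neutrophil, T/NK, border-associated macrophage or monocyte markers had already gone to those gates, so low values here follow in part from the order of gates. In Ccl3/Ccl4-high cells all 8 neutrophil markers, 6 of 7 T/NK markers and 6 of 7 monocyte markers were at 0, and the 8 border-associated macrophage markers summed to 0, 6.87 and 9.98 CPM in runs 1, 2 and 3. Immediate early genes summed to 3140, 4530 and 7343 there, against 549, 718 and 3003 in reference microglia, and their part in the levels of Il1a, Il1b and Tnf was not tested. The immediate early-high gate took cells from reference microglia and not from Ccl3/Ccl4-high cells, so part of this difference is built in. In MHC class II-high cells the border-associated macrophage markers summed to 409, 1415 and 623 CPM and the monocyte markers to 204, 271 and 804, against at most 6.92 and 10.5 in reference microglia. Lyve1, Cbr2 and Folr2, and the monocyte markers Ly6c2, Chil3 and Vcan, were at 0 there. The part of macrophages or monocytes other than microglia in the Il1b and Il1rn of that population was not tested.

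The rest of the pathway was read from a list of 60 genes with the 6 cytokines in it. Of 16 ligands and relatives, Il1f5, Il1f6, Il1f8, Il1f9, Il1f10, Lta and Lif had no UMI in 17752 reference microglia, and Il33 had 7. Ltb (lymphotoxin beta) had 17.6 ± 3.47 CPM and Osm (oncostatin M, of the interleukin-6 family) 13.2 ± 3.39. The interleukin-1 receptor gene Il1r1 had 0.526 ± 0.145 and the decoy receptor Il1r2 0.159 ± 0.0600, whereas Tnfrsf1a, a receptor of tumour necrosis factor, had 181 ± 59.1 and Il6ra 314 ± 49.2 (SD, n = 3). Pycard, the inflammasome adaptor, had 550.0 ± 23.6, Casp1 44.4 ± 1.28 and Nlrp3, an inflammasome sensor, 50.5 ± 11.1. These are levels in CPM that are not corrected for transcript length, so they do not rank genes.

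In Ccl3/Ccl4-high cells 5 of the 29 listed genes tested rose and none fell, with a median log2 change of 0.03 over the list and -0.02 over all genes, of which 5.12% rose. Beside Il1a and Il1b these were Zfp36 (1.92 ± 0.23), which encodes a protein that destabilizes cytokine mRNAs, Nfkbia (1.09 ± 0.25), the inhibitor of NF-kappaB, and Nfkb1 (0.85 ± 0.20), a subunit of it. Their edgeR adjusted p-values were 2.72e-06, 0.00631 and 0.00755. Nfkb1 was at 366, 151 and 309 CPM in runs 1, 2 and 3, against 158, 158 and 179 in reference microglia, so run 2 was not higher. Zfp36 was at 268, 316 and 653 CPM in runs 1, 2 and 3, against 65.1, 53.0 and 260 in reference microglia. None of 8 processing and inflammasome genes was called in these cells.

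Border-associated macrophage-like cells had 6 of the 29 listed genes higher and 6 lower, where 13.5% and 9.44% of all genes were. Casp1 (0.72 ± 0.23) and Casp4 (1.17 ± 0.32), which encode inflammatory caspases, rose with Birc3, Zfp36 and Nfkbia, while Pycard (-0.89 ± 0.14), Casp8, Aim2 and Il6st fell, beside the cytokines already given. Their edgeR adjusted p-values were 0.0230 for Casp1, 0.00782 for Casp4 and 3.011e-05 for Pycard. In MHC class II-high cells 3 of 27 listed genes rose, Casp4 and Nfkbiz with Il1b, and 2 fell, Il6ra and Il6st. Of all genes 13.5% rose and 8.50% fell, shares near those of the list. In lipid-type cells 3 of 27 fell, Il6ra and Il6st with Il18, and none rose, where 9.44% of all genes fell, a share near that of the list. Emp3/Fxyd5/Tnfsf13b cells had Il1b alone called among 29, and interferon-responsive cells none. Against Ccl3/Ccl4-high cells, MHC class II-high cells had more Casp1 (2.11 ± 0.65, edgeR adjusted p = 0.0293), where 8.08% of genes were higher, at 71.5, 86.1 and 55.3 against 32.5, 13.8 and 9.98 CPM.

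The transcripts that accompanied each cytokine within cells were then compared between carriers and non-carriers among 18563 microglial cells (reference, cycling, interferon-responsive, lipid-type, Ccl3/Ccl4-high and immediate early-high). Il1a carriers numbered 1177, 1071 and 1369 in runs 1, 2 and 3. Il1b was at 4.76, 13.4 and 2.08 CPM in them, against 0.499, 0.533 and 0.605 in non-carriers. Only 21 of the 3617 Il1a carriers had an Il1b UMI. Among them, 7 Ccl3/Ccl4-high cells held 68 Il1b UMIs and 2 immediate early-high cells 13. Within reference microglia alone, 0.267% ± 0.0210 of Il1a carriers had an Il1b UMI, against 0.151% ± 0.0244 of non-carriers (SD, n = 3). Il1b rose in Il1a carriers by 3.54 ± 0.32 on the log2 scale (edgeR adjusted p = 5.247e-10), the only 1 of 4 cytokines called, where 0.175% of 11460 genes rose. Il1b passed the filter on low counts through the carriers, where it was high, so this count is not separate support. Tnf was 0.86 ± 0.22 higher but missed the threshold (edgeR adjusted p = 0.0727), and within reference microglia alone it passed (0.95, adjusted p = 0.0414). Il6 changed by 0.29 ± 0.11 (edgeR adjusted p = 0.446) and Il18 by -0.06 ± 0.05 (edgeR adjusted p = 0.914). Outside the cytokines, 3 genes met the rule for naming, all chemokine genes, namely Ccl2 (3.55 ± 0.13), Ccl4 (2.48 ± 0.11) and Ccl3 (2.18 ± 0.13), with edgeR adjusted p-values of 4.527e-21, 1.625e-18 and 4.807e-15. Ccl3/Ccl4-high cells, defined by Ccl3 and Ccl4, made up 0.595%, 1.68% and 1.46% of Il1a carriers in runs 1, 2 and 3. Among non-carriers they made up 0.360%, 0.283% and 0.665%. The rises of Ccl3 and Ccl4 can thus partly restate that gate and are not separate support.

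Tnf carriers numbered 22, 81 and 138. Il1a was at 309, 135 and 121 CPM in them, against 47.0, 54.4 and 74.9 in non-carriers, so the runs did not overlap. Il1a rose by 1.22 ± 0.15 on the log2 scale (edgeR adjusted p = 2.434e-13), where 0.531% of 11305 genes rose. Il1b (2.08 ± 0.85, adjusted p = 0.475), Il6 (-0.24 ± 0.42, adjusted p = 0.985) and Il18 (-0.10 ± 0.19, adjusted p = 0.987) were not called by edgeR. Tnf carriers also had more Ccl4 (3.77 ± 0.10), Ccl3 (2.96 ± 0.12) and Ccl2 (3.04 ± 0.22), more of the stress and immediate early genes Gadd45b (4.28 ± 0.46), Egr3 (4.21 ± 0.45) and Atf3 (1.86 ± 0.21), and more Csf1, a growth factor of macrophages (1.89 ± 0.29). All had edgeR adjusted p-values of 5.05e-08 or less. The log2 ratio of Ccl2 was 1.57, 1.23 and 3.87 in runs 1, 2 and 3, a spread wider than its SE. The other genes named by the rule were Nes, which encodes the filament protein nestin (2.75 ± 0.44, edgeR adjusted p = 2.533e-07), and Ttr, which fell by 3.34 (SE 0.47, edgeR adjusted p = 1.049e-09). Of the 7 feedback genes in the pathway list, Zfp36, Tnfaip3 and Nfkbia rose by 0.68 ± 0.12, 1.06 ± 0.27 and 0.79 ± 0.12. In run 3, 17.4% of Tnf carriers were immediate early-high cells, against 7.24% of non-carriers. Ccl3/Ccl4-high cells made up 13.6%, 2.47% and 5.80% of Tnf carriers in runs 1, 2 and 3, against 0.357%, 0.493% and 0.733% of non-carriers. The rises of Ccl3, Ccl4 and Il1a can therefore partly restate that gate. Within reference microglia alone, 34.1% ± 2.74 of Tnf carriers had an Il1a UMI, against 19.2% ± 3.51 of non-carriers (SD, n = 3).

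Carriers of Il18 and Il6 had no other cytokine called in the fit of 3 runs. Among 11531 genes 0.442% were called between Il18 carriers and non-carriers, and among 11495 genes 0.0348% between Il6 carriers and non-carriers. At an unadjusted edgeR p under 0.05 there were 920 and 543 genes, and no gene of either comparison met the rule for naming. Il1a differed by -0.05 ± 0.05 between Il18 carriers and non-carriers (edgeR adjusted p = 0.904) and by 0.29 ± 0.09 between Il6 carriers and non-carriers (edgeR adjusted p = 0.898). Il1b was 1.70 ± 0.60 higher in Il6 carriers (edgeR adjusted p = 0.957), and it was called when run 2 was left out (2.79, adjusted p = 2.475e-04).

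Both cytokine calls between microglial carriers and non-carriers rest on the run as a block. Fitted without it, Il1b in Il1a carriers (log2 change 3.58, adjusted p = 1) and Il1a in Tnf carriers (1.43, adjusted p = 0.234) were not called. DESeq2's Wald test with the block called 10 genes in Il1a carriers and 22 in Tnf carriers, against 53 and 74 by edgeR.

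Il1b carriers were too few among microglial cells (17, 18 and 13 in runs 1, 2 and 3) and were compared over the cells of every gate, a choice made after the data had been seen. Of 86 carriers, 31 were reference microglia, 16 border-associated macrophage-like, 13 MHC class II-high and 10 Ccl3/Ccl4-high cells, so this comparison also sets populations against each other. Il1a was at 207, 223 and 166 CPM in carriers, against 46.3, 53.8 and 74.0 in non-carriers. It rose by 1.94 ± 0.21 on the log2 scale (edgeR adjusted p = 6.961e-18), where 3.36% of 11437 genes rose. Of the 45 listed pathway genes tested 8 rose, among them Nlrp3 (1.10 ± 0.26), Socs3 (1.45 ± 0.28), Nfkbiz (2.51 ± 0.50) and Il18bp (3.07 ± 0.91), which encodes a soluble protein that binds interleukin-18. The largest rises among the named genes were in Cxcl10 (7.56 ± 0.27), an interferon-induced chemokine gene, Tnip3 (6.46 ± 1.20) and Egr3 (6.46 ± 0.61). The log2 ratio of Cxcl10 was 8.47, 8.22 and 2.52 in runs 1, 2 and 3, a spread wider than its SE. Of the named genes that fell, Enpp2 had no UMI in carriers, Ttr, a choroid plexus transcript, fell by 4.77 (SE 0.35), Epn2 by 2.61 and Armc3 by 2.25. No choroid plexus-like cell carried Il1b.

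Detection in the same cell was also counted per run, from the same UMIs as the fits of carriers, so it is not separate support. Among microglial Tnf carriers 36.4%, 34.6% and 36.2% had an Il1a UMI in runs 1, 2 and 3, against 18.2%, 16.6% and 23.6% of non-carriers. Il1b carriers had one in 41.2%, 44.4% and 46.2% (7 of 17, 8 of 18 and 6 of 13). Within reference microglia alone the Il1b carriers, 31 cells, had an Il1a UMI in 29.9% ± 6.66, against 19.3% ± 3.56 of non-carriers (SD, n = 3). For Il6 carriers the share was 24.9% ± 5.43, and for Il18 carriers 20.8% ± 3.05, against 19.4% and 19.3% of their non-carriers. Carriers of each of these cytokines were deeper cells in every run, except those of Il1b in run 3 (3638 against 3673 UMIs). Il18 carriers had medians of 4756, 3736 and 3910 UMIs in runs 1, 2 and 3 against 4275, 3348.5 and 3606 in non-carriers, Il6 carriers 4481, 3539 and 3765 against 4379, 3416 and 3667, and Il1b carriers 5058 and 4117 in runs 1 and 2 against 4388 and 3422. Tnf carriers had 4423.5, 3647 and 3968 against 4390.5, 3420 and 3665.5, and the part of depth in these shares was tested only by thinning.

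At 2000 UMIs per cell the difference between Tnf carriers and non-carriers was 13.5 ± 13.1 percentage points, and between Il1b carriers and non-carriers 27.7 ± 6.63 (SD, n = 3 runs, from 112 and 28 carriers). Between Il6 carriers and non-carriers it was 3.94 ± 2.75, with carriers higher in 3 of 3 runs. Between Il18 carriers and non-carriers it was -0.25 ± 1.75, within the spread between runs. No test was run on these shares, since cells are not replicates.

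**Figure D4:**
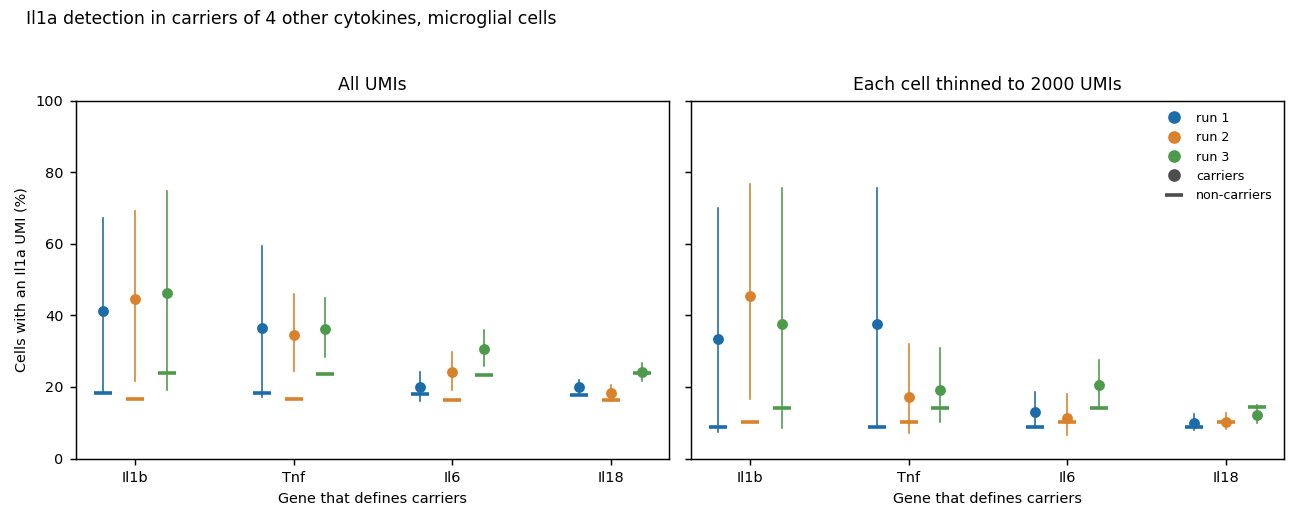
Microglial cells with an Il1a UMI, in percent, among carriers (points, with exact 95% binomial intervals) and non-carriers (short bars) of 4 other cytokines, per run, with all UMIs and at 2000 UMIs per cell. With all UMIs, carriers of Il1b, Tnf and Il6 lay above non-carriers in every run, and those of Il18 lay within 2.39 percentage points of them.

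The same cells were ordered by Ccl3 plus Ccl4 UMIs and by immediate early genes detected, both at 2000 UMIs per cell, an arrangement chosen after the data had been seen. With 0 UMIs of Ccl3 plus Ccl4, Tnf was at 0.650, 3.33 and 5.65 CPM in runs 1, 2 and 3. With 1 it was at 2.25, 5.94 and 13.4, from only 1, 3 and 14 Tnf UMIs. With 2 to 3 it was at 7.29, 14.1 and 38.2, from 1, 2 and 15 Tnf UMIs. With 4 or more it was at 23.2, 17.0 and 49.5, from 4, 3 and 13 Tnf UMIs. Il1b was at 0.445, 0.924 and 0.393 CPM with 0 and at 122, 260 and 30.4 with 4 or more. Il1a was at 47.1, 54.1 and 73.6 with 0, and at 174, 328 and 209 with 4 or more. In between, with 1 and with 2 to 3 UMIs, it was at 51.9 and 72.9 in run 1, 39.6 and 35.1 in run 2, and 85.3 and 104 in run 3, so it went up bin by bin in runs 1 and 3 and not in run 2. With 4 of 2000 UMIs a cell is at the 0.2% that defines Ccl3/Ccl4-high cells, so the top bin restates that gate by construction and adds no separate evidence. Il18 lay between 46.4 and 77.3 in every bin and run.

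With immediate early genes the runs differed. In runs 1 and 2 only 9 and 12 cells had 5 or more of these genes, and there Il1a was at 311 and 838 CPM and Il1b at 287 and 451. In run 3, 658 cells did, with Il1a at 85.8 and Il1b at 5.72 CPM. Tnf in run 3 was at 1.76, 3.84, 2.50, 9.43 and 18.7 CPM with 0, 1, 2, 3 to 4, and 5 or more genes, and Il6 at 14.7, 17.0, 13.4, 14.96 and 26.7. Il1a in that run moved from 71.0 to 85.8 over the same bins, and Il18 from 61.6 to 62.5. A high count of immediate early genes thus went with high Il1a in runs 1 and 2, from few cells, and with little difference in run 3. The ordered cells include the Ccl3/Ccl4-high cells, where Il1a and Il1b were highest on average. How many of those lay in the bins with 5 or more was not counted, so these bins are not separate support.

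**Figure D5:**
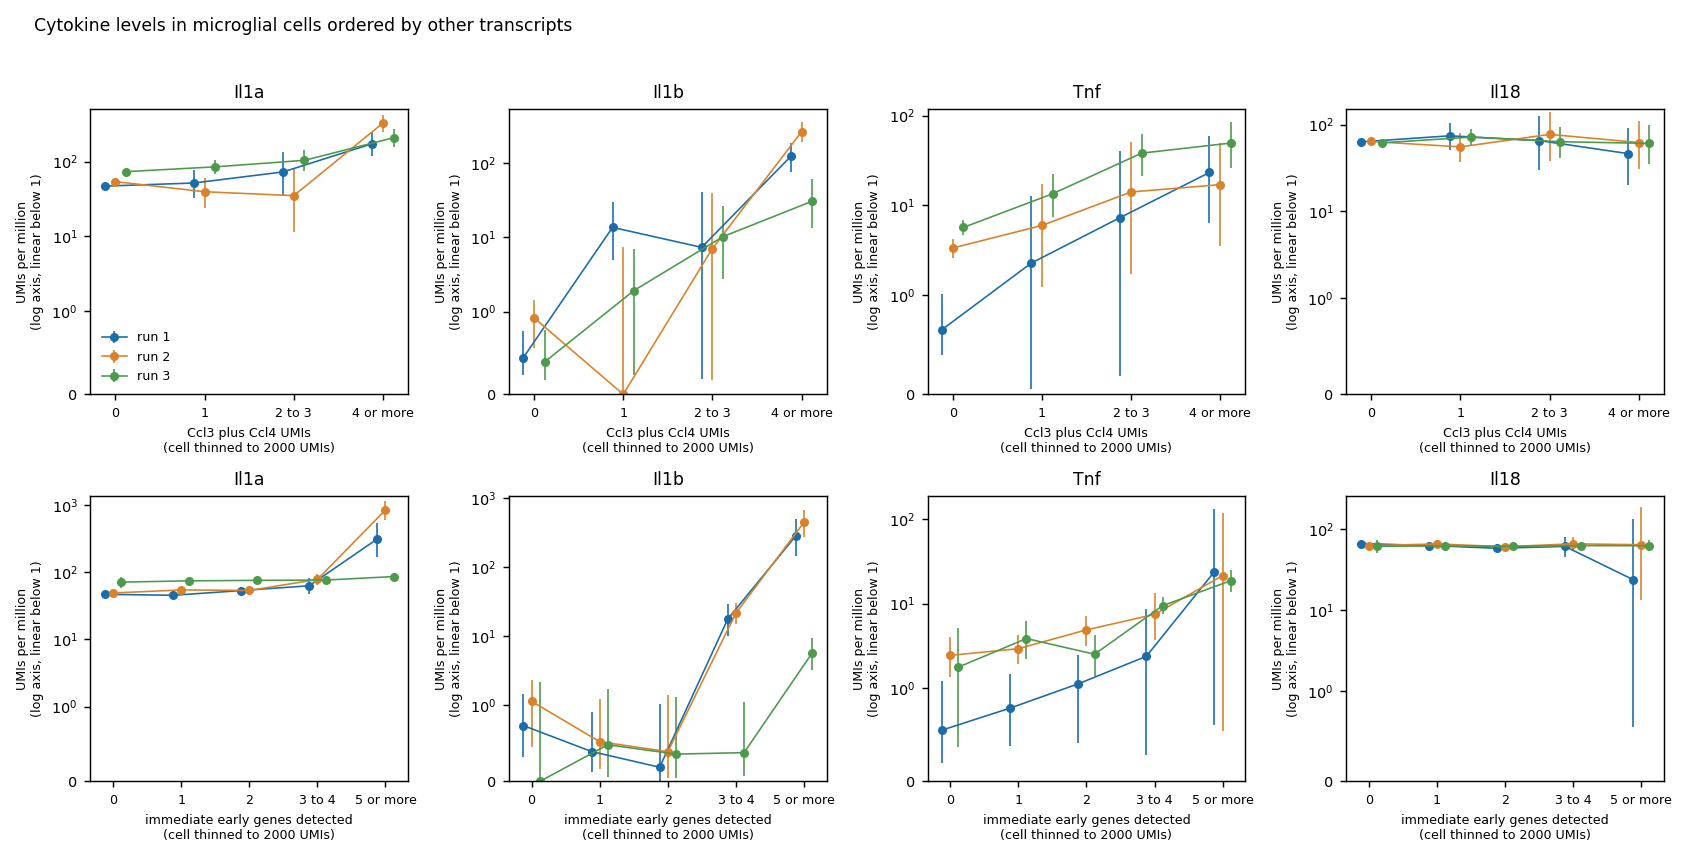
CPM of 4 cytokines (log axis, linear below 1) in microglial cells ordered by Ccl3 plus Ccl4 UMIs (top) or immediate early genes detected (bottom), per run with exact Poisson intervals. Tnf and Il1b were higher in the last bins, which in the top row restate the Ccl3/Ccl4-high gate. The last bins of the bottom row can hold cells of that gate too. In the bottom row, Tnf in the last bin rests on 1 UMI in run 1 and 1 in run 2. Il18 lay between 46.4 and 77.3 in every bin of the top row, and the last bins of the bottom row held 9, 12 and 658 cells in runs 1, 2 and 3.

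Genes whose levels were most like each cytokine were ranked by Pearson's r of log2 levels over 24 sums of cells (run by population) among 9543 genes. The sums share libraries and cell types, and the values are given as a description. For Il1a these were Sgk1 (0.86), Fam46c (0.85) and Blnk (0.85), for Il1b Plekho2 (0.82), Mapkapk2 (0.81) and Egr2 (0.81), and for Tnf Mcl1 (0.80), Srsf5 (0.77) and Ier5 (0.77). For Il18 they were Aif1 (0.88, the microglial marker known as Iba1), Col15a1 (0.87) and Nop9 (0.87). For Il6 they were Srsf10 (0.85), Erich1 (0.83) and Pramef8 (0.81). Among the cytokines themselves r lay between -0.20 (Il1b and Il6) and 0.53 (Il1b and Tnf), and was 0.18 for the neighbours Il1a and Il1b.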

How the data were processed

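Droplet RNA counts of tdTomato+ hippocampal cells were analysed for 3 runs of a single group. The deposited values are UMI counts per gene and barcode, per the file headers made with counting software 3.0.2 (run 1) and 3.1.0 (runs 2 and 3). Cell Ranger, Seurat 4.0 and mm10 are listed in the submitters' processing notes, and the aligner, the annotation and the selection of barcodes are not given in the sources used here. No ambient RNA correction or doublet removal was applied.

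Cells were kept with at least 1000 UMIs, 500 genes and at most 10% mitochondrial UMIs. Each cell took the first marker gate it met, from 101 gate genes found. For each population the UMI counts of a run were added up, and the sums were compared by edgeR 4.0.16 in R 4.3.3 (TMM, filterByExpr, quasi-likelihood test, Benjamini-Hochberg over all genes tested, threshold 0.05), with the run as a block, since each run is 1 library. Gate genes were left out of comparisons of populations. A population needed 20 cells in each run, lowered to 15 for lipid-type and MHC class II-high cells. Same-run deviations from the group means correlated between 0.165 and 0.812. Intervals are exact (Poisson for levels, binomial for shares) at 95% and cover counting error only. Genes outside the pathway list were named in comparisons of carriers by a fixed rule, as at most 8 that rose and 4 that fell most, among those that passed the threshold, changed by 1 or more on the log2 scale, reached 20 CPM and moved the same way in 3 runs. The fits were tested on counts simulated with no difference between runs, which cannot test the run as a block. Of 2-fold changes, 63.8% were recovered for Ccl3/Ccl4-high cells against reference microglia and 48.5% for Tnf carriers. Of 4-fold changes, 90.6% and 76.8% were recovered, and 6.37% and 0.8% of calls were false. DESeq2 1.42.0, stricter cells and gates, thinning to 2000 UMIs and leaving out each run were alternatives. The cytokines, gates and lists were chosen with earlier results of these data known. Of the gene IDs, 30934 were found in GENCODE M21, the source of positions.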

Additional observations from a re-analysis of the deposited data

Results flagged for a closer look

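Differences between activated populations were tested directly for 3 values. Il1a in lipid-type against Ccl3/Ccl4-high cells gave a log2 change of -2.23 and Il1b -5.59, and Il1a in MHC class II-high against Ccl3/Ccl4-high cells gave -3.57. Each was called by edgeR's quasi-likelihood test over 3 runs. Without run 2 the adjusted p of the contrasts with lipid-type cells was 0.0690 for Il1a and 0.0947 for Il1b, and without the run as a block it was 0.0850 for Il1b.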

How the results depend on the processing

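The run was a block in the reported fits, and the fits with no replicate block called 187 genes in Ccl3/Ccl4-high cells (418 with it), 34 in Emp3/Fxyd5/Tnfsf13b cells (129), 831 in border-associated macrophage-like cells (1416), 415 in lipid-type cells (916) and 60 between lipid-type and Ccl3/Ccl4-high cells (167). For carriers the fits without the block called 0 genes for Il1a (53 with it), 0 for Il18 (51), 0 for Il6 (4), 8 for Tnf (74) and 249 for Il1b (514). At an unadjusted edgeR p under 0.05 the first 3 had 31, 21 and 104 genes, and DESeq2's Wald test, with the block, called 10, 4 and 1, and 22 for Tnf. Without the block, Tnf in Il6 carriers was -0.0369 and Il1b in MHC class II-high against Ccl3/Ccl4-high cells -0.23, neither called.

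Without a filter on low counts 375 genes were called in Emp3/Fxyd5/Tnfsf13b cells, 81 in Il1a carriers and 11 in Il6 carriers. Without cells holding Xist and Y-linked UMIs the counts were 638 in Ccl3/Ccl4-high and 289 in Emp3/Fxyd5/Tnfsf13b cells, 27 in Il1a carriers and 7 in Il6 carriers. In reference microglia alone the counts were 18 for Il1a, 21 for Il18, 38 for Tnf and 1 for Il6 carriers. At 2000 UMIs per cell they were 13 for Il1a, 10 for Il18 and 173 for Il1b carriers. Il18 carriers had 33 with DESeq2 size factors and 30 with stricter cells.

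Leaving out 1 run at a time, the genes called lay between 178 and 421 in Ccl3/Ccl4-high, 86 and 138 in Emp3/Fxyd5/Tnfsf13b, 904 and 1468 in border-associated macrophage-like, 111 and 121 in interferon-responsive, 399 and 1119 in MHC class II-high and 368 and 718 in lipid-type cells. They lay between 32 and 134 for lipid-type and between 174 and 648 for MHC class II-high against Ccl3/Ccl4-high cells. For carriers they lay between 47 and 66 (Il1a), 7 and 42 (Il18), 29 and 60 (Tnf), 5 and 10 (Il6) and 198 and 521 (Il1b). The lowest counts came without run 2 for Ccl3/Ccl4-high and lipid-type cells, their contrast, and Il18 and Il1b carriers, and without run 3 for both MHC class II-high comparisons, border-associated macrophage-like cells and Tnf carriers. Leaving out run 1 gave the lowest count for Emp3/Fxyd5/Tnfsf13b cells, 86.

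None of the log2 changes that turned in sign was called in the setting where it turned. With 1 run left out at a time, Il18 lay between -0.15 (-0.1483) and 0.0485 in Ccl3/Ccl4-high cells, -0.081 and 0.0168 in border-associated macrophage-like cells, -0.2086 and 0.0136 in Tnf carriers and -0.0308 and 0.082 in Il6 carriers. Il1b lay between -4.37 and 2.68 in interferon-responsive cells, -0.34 and 0.33 in MHC class II-high against Ccl3/Ccl4-high cells, -0.0282 and 0.2658 in Il18 carriers and -0.53 and 2.79 in Il6 carriers, the last called without run 2. Il1a lay between -0.0862 and 0.1977 in lipid-type cells. Tnf lay between -0.20 and 0.1981 in Il18 carriers and -0.20 and 0.1514 in Il6 carriers, and Il6 between -0.0429 and 0.0146 in Il18 carriers. Il18 in border-associated macrophage-like cells was 0.0118 with DESeq2 size factors, 0.0041 with DESeq2's test, 0.045 with stricter cells and 0.10 without cells with Xist and Y-linked UMIs. Without the cell with the most Il1b UMIs, Il1b was -4.17 in interferon-responsive and -4.12 in lipid-type cells and -0.24 in MHC class II-high against Ccl3/Ccl4-high cells, where stricter gates gave -0.20 and no filter -0.11. Without a filter, Il1a in lipid-type cells was -0.0402, and DESeq2 gave -0.0076 for Tnf in Il18 carriers. Without cells with Xist and Y-linked UMIs, Il1b was -0.41 and Il6 0.013 in Il18 carriers and Tnf -0.0328 in Il6 carriers, and stricter cells gave -0.0491 for the last. At 2000 UMIs, Il6 was 0.0183 in Il18 carriers, Il18 -0.16 in Il6 carriers and -0.0858 in Il1b carriers.

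Shares of cells depend on depth. At 2000 UMIs per cell the mean share with a UMI was 11.0% for Il1a, 0.263% for Il1b, 11.6% for Il18 and 2.64% for Il6. Il1b carriers exceeded non-carriers in Il1a detection by 24.3 percentage points, by 27.7 at 2000 UMIs and by 10.6 in reference microglia. Il1a carriers exceeded non-carriers in Il18 detection by 1.78, and by -0.0209 at 2000 UMIs. The cause of these shifts was not tested, beyond the fewer genes, cells or runs that a setting leaves. Stricter gates for Ccl3/Ccl4-high, Emp3/Fxyd5/Tnfsf13b, interferon-responsive and lipid-type cells, stricter cells for lipid-type and MHC class II-high cells, and thinned Tnf carriers left too few cells and were not run.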
